A study of Homo sapiens with 4 samples.

Results

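The comparison set C-30 at 2 µM against C-30 at 0.5 µM in DU145 cells, with 1 array at each dose. DU145 is an androgen-independent human cell line from a prostate cancer, and the design text places the work in castration-resistant disease. C-30 is a code name for a compound that the series describes as an inhibitor of PSF. All 4 arrays of the series came from cells kept for 48 h in their condition: vehicle, 5 µM of No.10-3, which is the other PSF inhibitor of the series, 0.5 µM of C-30 or 2 µM of C-30. The labels name no other genotype or agent, and they do not say how many cultures each array holds. The log2 signal at 0.5 µM was subtracted from that at 2 µM for each gene, and vehicle and No.10-3 entered no difference. A gene was described when the higher of its signals at the C-30 doses exceeded the 95th percentile reached by negative controls (HTA2-neg probe sets) on the array that held it. This background level was 7.11 at 0.5 µM and 7.15 at 2 µM on the log2 scale. Of 17687 named genes, 6056 entered (34.2%), 5382 of them above background at both doses and 674 at 1 dose only. POP5, a subunit of RNase P, was the last gene inside this limit, at 6.90 and 7.15, and TAF11, a subunit of the general transcription factor TFIID, was the first outside it, at 6.32 and 7.15. With 1 array a dose there is no replicate error, so no difference below has a standard deviation or a test, and each statement describes these arrays.

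PSF is the protein made from SFPQ. It binds RNA and DNA in the nucleus, works with its relatives NONO and PSPC1 in paraspeckles, and has roles in transcription, splicing and DNA repair. The genes that differed most between the doses encode the replication-dependent histones, the bulk proteins around which new DNA is wrapped. These genes sit in clusters, are transcribed in S phase when DNA is copied, and give mRNAs that normally end in a stem loop in place of a poly(A) tail. Stem-loop binding protein, SLBP, holds that end and accompanies the mRNA through processing, export and translation, and the mRNAs are degraded quickly when DNA synthesis stops.

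At 2 µM, 59 of the 6056 genes had at least 2-fold higher signal than at 0.5 µM (0.974%), and 123 had at least 2-fold lower signal (2.03%). Of 2004 positive control probe sets above background, 5.59% were past 2-fold either way, a larger share than that of the genes. A log2 difference of 1 is called 2-fold on the scale of these values only. The lower genes made up 67.6% of those past 2-fold, a share that was 58.8% after quantile normalization, 57.3% with centred arrays and 50.5% after a lowess correction. Of the lower genes, 33 were replication-dependent histones, which left 90 lower and 59 higher among the other 6013 genes. All 14 genes with at least 4-fold lower signal were histones, and so were 18 of the 20 lowest genes. The 1 gene past 4-fold higher was ERLIN2, whose 0.5 µM signal was under background. The median difference over all genes was -0.05, with a 5th percentile of -0.76 and a 95th of 0.65. Where a gene was under background on 1 array its fold is uncertain. When both signals were required to be above background, 32 genes were past 2-fold higher and 73 lower. With a dim signal set to the background level of its array, 32 were higher and 79 lower, and 13 genes, all histones, were lower by at least 4-fold and 0 higher.

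**Figure D1:**
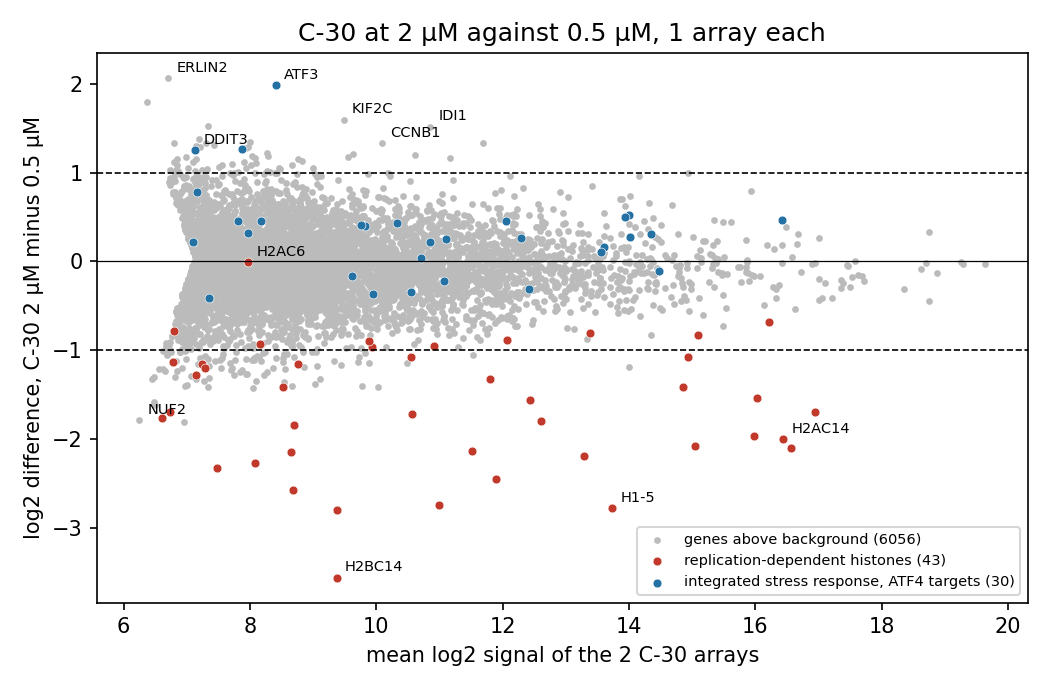
Each point is 1 of the 6056 genes, with the mean log2 signal of the C-30 arrays on the horizontal axis and the log2 difference, 2 µM minus 0.5 µM, on the vertical axis; dashed lines mark 2-fold. The 43 histone genes (red) lie below zero at low and high signal alike, with H2AC6 at -0.01, and ATF3, at 1.99, is the highest of the 30 integrated stress response genes (blue).

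Of 61 replication-dependent histone genes measured, 43 were above background in at least 1 dose. All 43 were lower at 2 µM, 33 of them by at least 2-fold, against 2.03% of all genes, and their median difference was -1.56 on the log2 scale. The filter favours a gene that was bright at 1 dose, so the whole set is also given: of the 61 measured genes, 57 were lower, 36 by at least 2-fold, and 4 were higher, with a median of -1.16. The 34 genes above background at both doses had a median of -1.63, and 25 of them were past 2-fold. The other 9 were under background at 2 µM. With those 9 set to the background level, the median of the 43 was -1.41, and 27 were past 2-fold. The 18 members that did not enter, with signals no higher than 6.72 at 0.5 µM and 6.45 at 2 µM, had a median of -0.29. In RNA of bulk cells, fewer cells making an mRNA and less of it per cell cannot be told apart.

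The median signal of the 43 histone genes was 12.55 with vehicle, 12.15 with No.10-3, 11.38 on the 0.5 µM array and 9.70 on the 2 µM array. Both C-30 arrays thus lay below the vehicle array, and 2 µM lay below 0.5 µM. Set against vehicle, which both differences share, the median difference was -1.14 at 0.5 µM and -2.68 at 2 µM. The probe sets of these near-identical genes can bind RNA of more than 1 member, and signal from 1 gene and from its copies cannot be told apart. The family as a whole therefore carries more than any single value below.

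**Figure D2:**
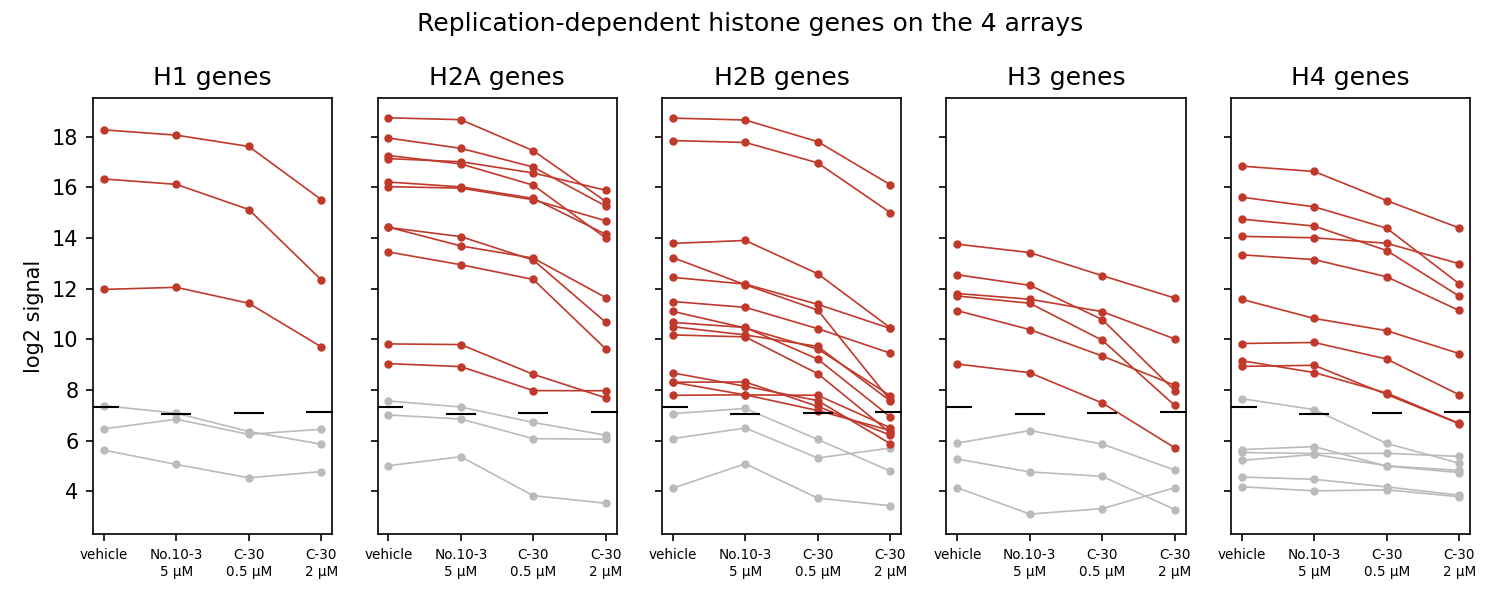
Log2 signals of the 61 replication-dependent histone genes on the 4 arrays, in a panel for each histone family; red lines are the 43 genes that entered, grey lines the other 18, and black ticks the background level of each array. The red lines step down from vehicle to C-30 at 0.5 µM and again to 2 µM, apart from H2AC6 in the H2A panel, which is level between the doses at 7.98 and 7.97.

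The linker histones, which bind the DNA entering and leaving a nucleosome, had 3 members above background and all 3 were past 2-fold, with a median of -2.10. H1-5 had signals of 16.33 with vehicle, 16.12 with No.10-3, 15.12 at 0.5 µM and 12.35 at 2 µM, a difference of -2.78. H1-4 went from 17.61 to 15.51 (-2.10) and H1-2 from 11.42 to 9.70 (-1.72). H1-4 was still among the brightest members at 2 µM.

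Among the core histones, which form the nucleosome itself, 11 of 14 H2B genes were past 2-fold, with a median of -1.77. H2BC14 had the lowest difference of all 6056 genes. Its signal was 13.23 with vehicle, 12.15 with No.10-3, 11.16 at 0.5 µM and 7.59 at 2 µM, a difference of -3.56 or 11.8-fold. At 2 µM it lay just above background. The brightest H2B gene, H2BC12, went from 17.80 to 16.10 (-1.70), and the smallest difference of the family was that of H2BC4, from 7.19 to 6.40 (-0.79), which ended under background.

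Of the 11 H2A genes, 7 were past 2-fold, with a median of -1.54. They held both a large difference, in H2AC8 from 12.36 to 9.62 (-2.74), and the smallest of all histones, in H2AC6. The signals of H2AC6 were 9.04 with vehicle, 8.93 with No.10-3, 7.98 at 0.5 µM and 7.97 at 2 µM. It was lower than vehicle at both doses of C-30, by 1 step that was not followed by another. It was the only entered histone with a difference above -0.5. H2AC14 went from 17.44 to 15.44 and H2AC20 from 16.57 to 15.88 (-0.68), so bright members of the family also differed unequally.

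H3 had 5 of 6 genes past 2-fold, with a median of -1.46, and H4 had 7 of 9, with a median of -1.20. H3C8 was at 12.55 with vehicle, 12.13 with No.10-3, 10.78 at 0.5 µM and 7.98 at 2 µM (-2.80). H3C11 was next in that family, at 9.97 and 7.39 (-2.57). H4C14 had the lowest difference among H4 genes, from 14.39 to 12.20 (-2.19), and H4C11 the smallest, from 13.79 to 12.99 (-0.81). The large cluster on chromosome 6 held 34 entered genes, 27 past 2-fold, with a median of -1.70. The cluster on chromosome 1 held 9, with 6 past 2-fold and a median of -1.41.

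Many H2A and H2B genes lie head to head and share the DNA between them. There were 6 such neighbouring pairs with both genes above background, and 4 had both members past 2-fold. The gap between partners had a median of 0.76. H2BC11 and H2AC11 differed from each other least, at -2.13 and -2.08, and H2AC14 and H2BC14 most, with H2BC14 lower by a further 1.56. H2BC4 and H2AC6 formed the pair with the smallest differences, at -0.79 and -0.01. Partners were thus alike in some pairs and unlike in others.

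Promoter sequences are shown for the histones with the 3 lowest differences, H2BC14, H3C8 and H1-5, and for H2AC6, whose signal was level between the doses. They are from RefSeq on GRCh38.p14 and run 5′ to 3′ along the strand of the gene over the 250 bases before its start. Capitals mark CCAAT, or ATTGG on the other strand, and TATAAA, or TTTATA on the other strand. CCAAT boxes bind the factor NF-Y in many cell cycle genes, and TATA boxes place the start of transcription.
H2BC14: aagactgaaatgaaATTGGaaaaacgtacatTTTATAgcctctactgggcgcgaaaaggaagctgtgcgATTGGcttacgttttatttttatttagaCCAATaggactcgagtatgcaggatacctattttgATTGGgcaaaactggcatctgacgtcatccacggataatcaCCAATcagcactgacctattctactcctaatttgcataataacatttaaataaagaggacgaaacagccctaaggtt
H3C8: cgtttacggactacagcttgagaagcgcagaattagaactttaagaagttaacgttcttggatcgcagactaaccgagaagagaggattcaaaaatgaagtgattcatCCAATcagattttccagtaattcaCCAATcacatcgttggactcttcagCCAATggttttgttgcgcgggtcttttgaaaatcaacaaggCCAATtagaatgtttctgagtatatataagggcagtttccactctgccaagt
H1-5: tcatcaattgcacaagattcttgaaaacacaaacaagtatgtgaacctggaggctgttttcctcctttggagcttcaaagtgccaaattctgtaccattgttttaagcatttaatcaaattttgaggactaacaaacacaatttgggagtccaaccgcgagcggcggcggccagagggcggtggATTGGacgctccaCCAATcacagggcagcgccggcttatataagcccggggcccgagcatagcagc
H2AC6: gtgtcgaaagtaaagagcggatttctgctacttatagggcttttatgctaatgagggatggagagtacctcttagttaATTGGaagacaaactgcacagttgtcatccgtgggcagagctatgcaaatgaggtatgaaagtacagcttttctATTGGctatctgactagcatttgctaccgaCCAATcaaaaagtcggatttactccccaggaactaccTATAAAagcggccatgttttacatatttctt

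The H2BC14 window, at chr6:27814772-27815021 on the + strand, held 5 CCAAT matches and 1 match of TATAAA, on the other strand at position -219 and so far from the start. The H3C8 window, at chr6:26271414-26271663 on the - strand, held 4 CCAAT matches between -142 and -52 and no exact TATAAA. The H1-5 window, at chr6:27867589-27867838 on the - strand, had 2 CCAAT matches, at -66 and -53, and no exact TATAAA. The H3C8 and H1-5 windows both hold the letters tatataa shortly before the start, which the exact search did not count. They are therefore not shown to lack a TATA box. H2AC6, at chr6:26123922-26124171 on the + strand, had 3 CCAAT matches and a TATAAA at -31. H2AC6, whose signal was level between the doses, thus held both motifs, and a link between motif and difference was not tested.

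Promoters were found for 40 of the 43 entered histones, as 42 windows of 300 bases from 250 before to 50 after the start. CCAAT on either strand was in 35 of the 42 (83.3%) and in 34.6% of all 35116 promoter windows of that length. TATAAA was in 31 of the 42 (73.8%) and in 11.5% of all. All 7 genes without CCAAT were H4 genes, and the 33 with it were the H1, H2A, H2B and H3 genes that had a promoter entry. The 33 had a median difference of -1.70 and the 7 had -1.33, which follows the histone family as much as the motif. The 29 genes with TATAAA had a median of -1.41 against -1.96 for the other 11. Exact TATAAA was counted on either strand anywhere in the window. H2BC14, with its only match far from the start, thus counts as holding it. H3C8 and H1-5, with tatataa close to the start, do not. The split therefore cannot compare promoters with and without a TATA box. The median was -1.70 for the genes with at least 1, 2 or 3 CCAAT matches and -2.08 for the 11 genes with at least 4. A match describes the letters in the window and shows no binding.

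The histones that are made outside S phase as well, and whose mRNAs are mostly polyadenylated, differed little. Of 8 replacement and variant histone genes above background, 3 were higher and 5 lower (62.5%, against 54.8% of all genes). None was past 2-fold, and the median was -0.13. H2AJ had the lowest value, from 7.60 to 7.04 (-0.56), ending under background, with at least 1.37-fold against that level. H2AX, the variant phosphorylated at DNA breaks, went from 11.46 to 11.12 (-0.34). CENPA, the histone H3 of centromeres, had the highest, from 7.02, under background, to 7.67 (0.65), at least 1.47-fold. H2AZ1 was at 13.24 and 13.31. The WT PLUS kit named in the labels primes along whole transcripts, so RNA with and without a poly(A) tail is labelled.

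The factors that make and process histone mRNA did not differ in the way the mRNAs did. Of 10 above background, 3 were higher and 7 lower (70%, against 54.8% of all genes). None was past 2-fold, and the median was -0.18. SLBP was at 9.39 with vehicle, 9.62 with No.10-3, 9.69 at 0.5 µM and 9.67 at 2 µM (-0.02). ERI1, an exonuclease that trims the histone 3′ end, was higher, from 8.67 to 9.34 (0.68), and its value at 2 µM was close to the 9.37 of vehicle. SYMPK, the scaffold of the 3′ end cleavage complex, went from 11.47 to 10.93 (-0.54). HINFP, an activator of H4 genes, went from 9.14 to 8.77 (-0.37). Of 11 histone chaperones, none was past 2-fold. CHAF1B, a subunit of the factor that loads histones behind the fork, had -0.63.

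Genes of DNA replication were mostly lower, by far less than the histones. Of 39 above background, 28 were lower, against 3321 of all 6056 genes, and 11 were higher. The median was -0.23, or -0.40 with a floor at the 99th percentile of the negative controls. Only 1 was past 2-fold, a share of 2.56% lower against 2.03% of all genes. This was DNMT1, which copies DNA methylation onto the new strand, at 9.66 with vehicle, 9.06 at 0.5 µM and 7.97 at 2 µM (-1.09). UHRF1, its recruiting partner at the fork, went from 10.63 to 9.67 (-0.96). WDHD1, which links helicase and polymerase, had -0.83. GINS3, a subunit of the replicative helicase, had the highest value, from 7.07, just under background, to 7.94 (0.87), at least 1.78-fold against background. PCNA, the sliding clamp, was at 8.95 and 9.11. The E2F motif TTTCNCGC was in 13 of the 44 promoters found for 34 of these genes (29.5%) and in 3.00% of all promoters, and the 12 genes holding it had a median of -0.14 against -0.24 without it.

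Nucleotide synthesis genes, which supply the building blocks, were lower in 20 of 24 cases (83.3%), against 54.8% of all genes, and none was past 2-fold. The median was -0.18, or -0.31 with the floor at the 99th percentile. CTPS2, a CTP synthetase, had the lowest value, from 8.54 to 7.85 (-0.69). TK1, thymidine kinase, went from 12.13 to 11.78 (-0.35), and TYMS, thymidylate synthase, was at 12.36 and 12.39. Of 15 cyclins, kinases and E2F factors of the G1/S step, 6 were higher and 9 lower (60%, against 54.8% of all genes). The median was -0.18, or -0.05 over those above background at both doses. E2F5 was at 7.53 and 6.43 (-1.10), but its 2 µM signal was under background, and against that level the fold was at least 1.31. TFDP1, the partner of E2F proteins, had -0.77 and CDK2 had -0.66. RB1, whose protein restrains E2F where it is functional, had 0.80. That value is of mRNA and does not show whether these cells make a working RB protein.

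Among the genes named as CDK inhibitors, most of which halt the cycle, the members above background were higher. Of 7 measured, 4 were above background and all 4 were higher, against 2735 of all 6056 genes. They were higher by less than 2-fold, with a median of 0.47, and are few. CDKN1B, which encodes p27, was at 7.87 with vehicle, 7.93 with No.10-3, 8.53 at 0.5 µM and 9.09 at 2 µM (0.56). CDKN1A, which encodes p21, was at 8.54, 8.06, 8.75 and 9.17 in the same order (0.41). CDKN2A had 0.19. CDKN3, on the list by its symbol, encodes a phosphatase and not an inhibitor of the p21 or p27 kind, and had 0.53. Over all 7 measured members the median was 0.19 and 3 were lower. These 3 were under background at both doses, so their direction says little.

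Mitosis genes lay on both sides. Of 54 above background, 33 were higher and 21 lower, against 2735 higher and 3321 lower of all genes, with a median of 0.14. Past 2-fold were 2 higher (3.70%, against 0.974% of all genes) and 3 lower (5.56%, against 2.03%). KIF2C, a kinesin that takes microtubules apart at centromeres, was at 9.49 with vehicle, 9.86 with No.10-3, 8.68 at 0.5 µM and 10.28 at 2 µM (1.60). CCNB1, cyclin B1, which drives entry into mitosis, was at 9.69, 10.51, 9.42 and 10.75 (1.34). For both genes the 0.5 µM array was the lowest of the 4 and the 2 µM array the highest, so the difference between doses exceeded that between 2 µM and vehicle. PLK1, a mitotic kinase, had the same order, with 15.53 at 0.5 µM and 16.33 at 2 µM (0.79). BUB3, of the spindle checkpoint, went from 12.51 to 13.30 (0.79).

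The mitosis genes past 2-fold lower included both kinetochore and motor genes. KIF11, the motor that pushes spindle poles apart, was at 7.55 with vehicle, 8.96 with No.10-3, 8.97 at 0.5 µM and 7.77 at 2 µM (-1.20). Its 2 µM signal lay near that of vehicle, and the 0.5 µM signal above both. NUF2, an outer kinetochore protein, was at 7.15 and 5.36 (-1.79), and KIF20B, a kinesin of cell division, at 7.31 and 5.69 (-1.62). Both were only just above background at 0.5 µM and under it at 2 µM. Against the background level their folds were at least 1.00 and 1.12, so these arrays set almost no lower limit on them.

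Genes of homologous recombination and the Fanconi pathway were lower in 11 of 15 cases, against 54.8% of all genes, with a median of -0.18; 1 was past 2-fold, against 2.03%. EXO1, the nuclease that resects DNA ends, was at 9.86 with vehicle, 10.43 with No.10-3, 9.72 at 0.5 µM and 8.34 at 2 µM (-1.38). The 2 µM array stood below the other 3. ATM, the kinase that signals breaks, had -0.49, and MRE11, of the complex that detects them, had 0.48. Among the 20 lowest genes outside the histones were also RAD18 and USP28. RAD18, a ubiquitin ligase of damage tolerance, was at 7.89 with vehicle, 8.22 with No.10-3, 8.77 at 0.5 µM and 7.42 at 2 µM (-1.34). USP28, a deubiquitinase, was at 7.25, 8.04, 7.95 and 6.60 in the same order (-1.35). It ended under background and was at least 1.75-fold lower. Of 16 p53 target genes, 10 were higher and 6 lower, against 2735 higher and 3321 lower of all genes. The median was 0.05, or -0.05 with the floor at the 99th percentile. DDB2, of nucleotide excision repair, was at 6.49 and 7.79 (1.30), at least 1.61-fold against background. GADD45A, a stress gene, had 0.76, and TRIAP1 had -1.01 and ended under background, at least 1.26-fold lower.

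Genes of the integrated stress response were mostly higher at 2 µM. In this pathway phosphorylated eIF2 favours translation of ATF4, a transcription factor that turns on genes of amino acid supply and, through DDIT3 and ATF3, of prolonged stress. Of 30 above background, 23 were higher, against 2735 of all 6056 genes, and 7 were lower, with a median of 0.29. Past 2-fold higher were 3 (10%), against 0.974% of all genes. Over all 36 measured members the median was 0.27, with 27 higher. ATF3, a stress-induced transcription factor, was at 7.24 with vehicle, 6.13 with No.10-3, 7.41 at 0.5 µM and 9.40 at 2 µM (1.99, 3.96-fold). Vehicle and No.10-3 were under background and 0.5 µM little above it, and 2 µM stood apart.

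DDIT3, the factor also known as CHOP, was under background on 3 arrays, at 6.36 with vehicle, 6.03 with No.10-3 and 6.51 at 0.5 µM, and above it at 2 µM, at 7.76 (1.25). Against the background level it was at least 1.57-fold higher. SESN2, a sensor that restrains mTORC1, was at 7.58, 7.20, 7.23 and 8.50 in the order of vehicle, No.10-3, 0.5 µM and 2 µM (1.27). PPP1R15A, which helps to dephosphorylate eIF2, went from 6.77, under background, to 7.56 (0.79), at least 1.37-fold against it. These genes were all dim, with signals under 10 at 2 µM.

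Bright members of the pathway differed less. ASNS, asparagine synthetase, was at 13.31 with vehicle, 13.82 with No.10-3, 13.74 at 0.5 µM and 14.26 at 2 µM (0.52). SLC7A11, the cystine transporter, went from 11.82 to 12.27 (0.45), and PSAT1 and PHGDH, of serine synthesis, had 0.47 and 0.44. ATF4 mRNA itself was at 10.69 and 10.74. Not all targets followed: PSPH, the last enzyme of serine synthesis, had -0.41, ending at background, and CBS, of cysteine synthesis, had -0.37. Of 16 aminoacyl tRNA synthetases, 9 were higher and 7 lower, against 2735 higher and 3321 lower of all genes. The median was 0.18, or 0.30 with the floor at the 99th percentile. WARS1 had the highest value, from 13.53 to 14.24 (0.70), and RARS1 the lowest, from 8.36 to 7.75 (-0.61).

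The ASNS promoter is shown because it holds a composite element of the kind that ATF4 binds with C/EBP partners. The window is the 250 bases before the start, at chr7:97872409-97872658 on the - strand of GRCh38.p14 from RefSeq, 5′ to 3′, with the element in capitals.
ASNS: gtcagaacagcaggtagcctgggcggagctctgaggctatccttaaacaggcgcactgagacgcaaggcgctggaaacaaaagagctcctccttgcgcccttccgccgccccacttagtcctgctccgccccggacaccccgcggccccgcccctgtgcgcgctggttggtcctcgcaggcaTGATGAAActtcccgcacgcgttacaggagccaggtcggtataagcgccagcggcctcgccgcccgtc

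The capitals start at position -68. The motif TGATGNAA, on either strand, was in 7 of 39 promoters found for 25 of the 30 genes (17.9%) and in 3.62% of all promoters. The 7 genes holding it were ATF3, CHAC1, ASNS, SLC3A2, SLC7A1, SLC1A5 and CEBPG, with a median difference of 0.42 against 0.29 for the other genes. SLC1A5, at -0.22, was lower all the same. The site TGACGTCA was in 1 of the 39 windows, that of PPP1R15A, and in 1.85% of all.

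Immediate early and AP-1 genes, which respond within minutes to growth factors or stress, were higher in 16 of 19 cases, against 2735 of all 6056 genes, with a median of 0.16. The 3 past 2-fold higher, against 0.974% of all genes, were ATF3, which this list shares with the stress response, JUN and EGR1. JUN, a subunit of AP-1, was at 7.82 with vehicle, 8.29 with No.10-3, 7.93 at 0.5 µM and 8.98 at 2 µM (1.05). EGR1, a zinc finger factor, was at 7.53, 8.75, 7.96 and 9.00 (1.05). For EGR1 the No.10-3 array was nearly as high as the 2 µM array. HBEGF, an EGF receptor ligand, had 0.63. Of 19 genes of endoplasmic reticulum chaperones and the unfolded protein response, 12 were higher, against 2735 of all 6056 genes. None was past 2-fold, and the median was 0.04. HSPA5, the main chaperone there, went from 15.27 to 15.71 (0.44).

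Cholesterol synthesis and uptake genes were higher in 12 of 18 cases, against 2735 of all 6056 genes. The median was 0.10, or 0.26 with the floor at the 99th percentile. In each direction 1 was past 2-fold (5.56%), against 0.974% higher and 2.03% lower of all genes. IDI1, which isomerises isopentenyl diphosphate, was at 9.00 with vehicle, 8.88 with No.10-3, 10.10 at 0.5 µM and 11.61 at 2 µM (1.52, 2.87-fold). Vehicle was exceeded at 0.5 µM and again at 2 µM. HMGCS1, which makes the precursor of mevalonate, had the same order, at 10.92, 9.71, 11.49 and 12.26 (0.77). DHCR7, of the last step to cholesterol, went from 13.66 to 14.39 (0.73), but vehicle was higher still, at 14.46. TM7SF2, a sterol reductase, was lower, from 8.62 to 7.50 (-1.12), and SREBF2, the gene of the master regulator of the pathway, was at 8.60 and 8.54. The members thus differed in opposite directions between the doses.

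Target genes of TGF-beta, BMP and YAP signalling were lower in 11 of 15 cases (73.3%), against 54.8% of all genes. The median was -0.29, or -0.51 with the floor at the 99th percentile. Past 2-fold lower were 4, against 2.03% of all genes. CCN1, a secreted matrix protein and YAP target, was at 10.71 with vehicle, 10.79 with No.10-3, 10.47 at 0.5 µM and 9.07 at 2 µM (-1.40). ID1, an inhibitor of differentiation factors induced by BMP, was at 11.89, 11.85, 11.05 and 9.91 (-1.14), and ID3 was at 10.86, 10.82, 10.26 and 9.19 (-1.07). In all 3 the 2 µM array was the lowest of the 4. ANKRD1, a YAP target, went from 8.31 to 7.11 (-1.20), ending just under background. ID2, a relative of ID1, was higher, from 7.54 to 8.19 (0.65), so the ID genes did not go together.

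Of 16 genes of NF-kB signalling above background, 11 were lower (68.8%), against 54.8% of all genes, with a median of -0.28. RELB, a subunit of NF-kB, was at 7.23 and 6.02 (-1.21), with at least 1.06-fold against background. NFKB1, which encodes another subunit, went from 9.92 to 9.33 (-0.59). CXCL8, a chemokine, had 0.54. Over all 28 measured members 16 were lower, with a median of -0.16.

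**Figure D3:**
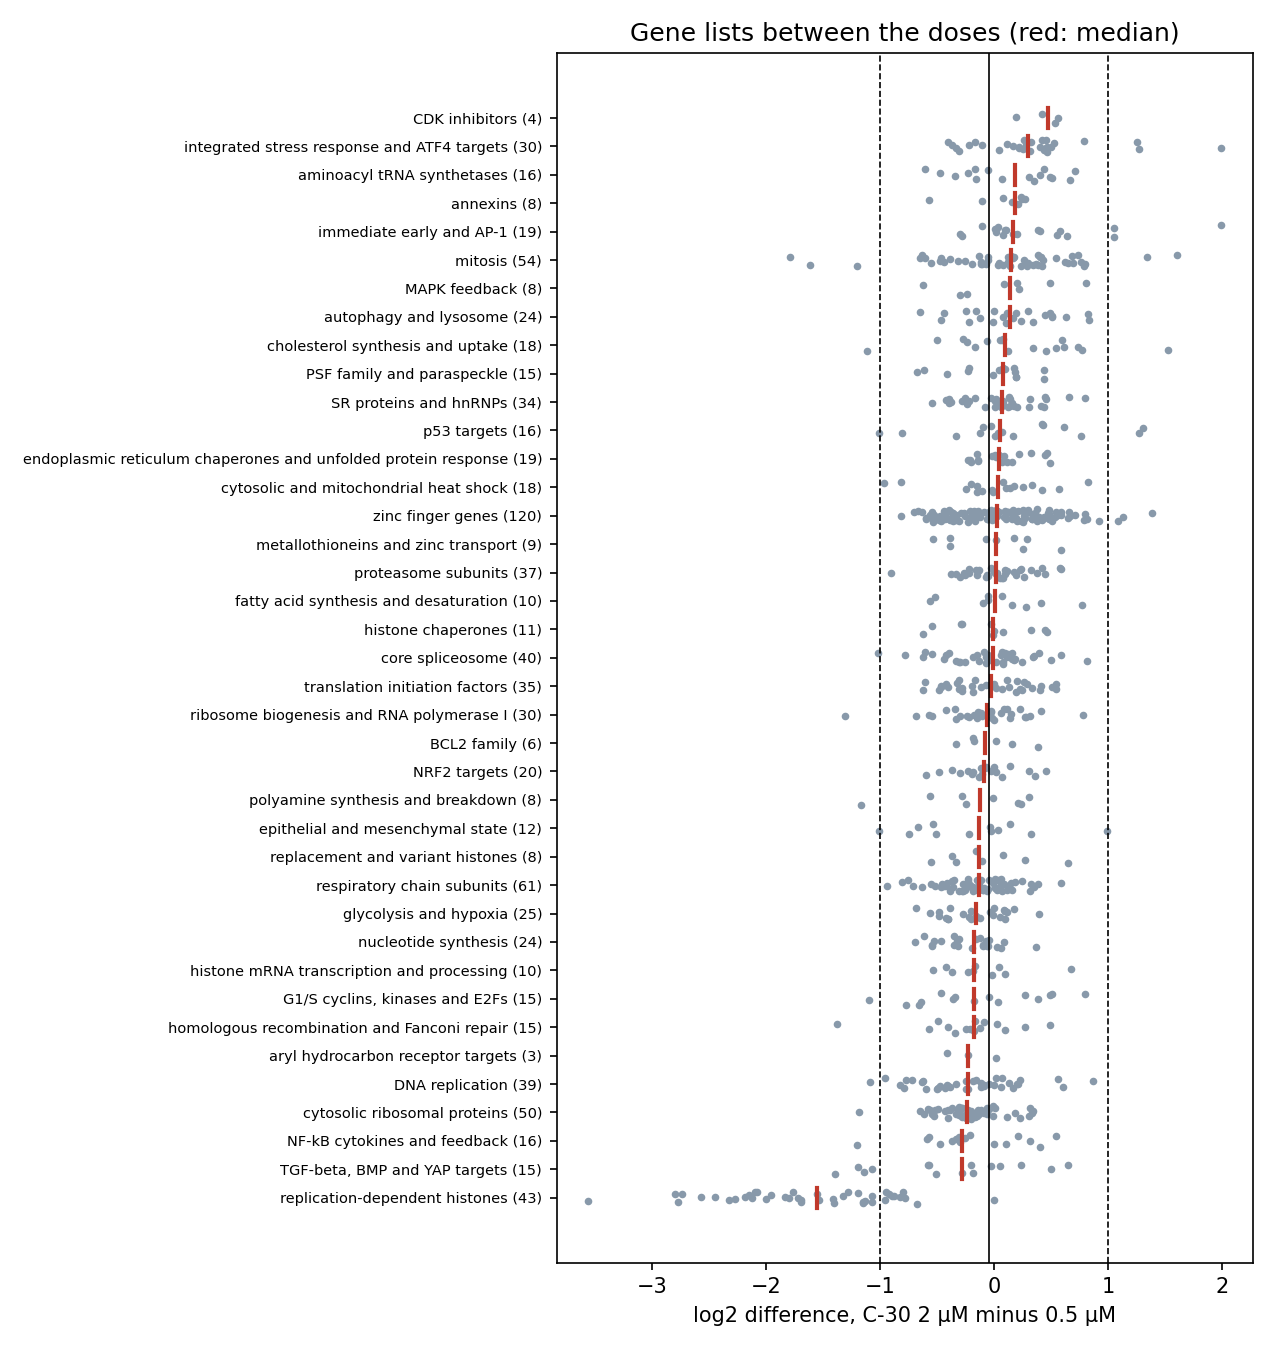
Log2 differences, 2 µM minus 0.5 µM, of the genes above background in each gene list with at least 3 such genes; each point is a gene, red bars are medians, the solid line is the median of all 6056 genes at -0.05 and dashed lines mark 2-fold, with the number of genes in brackets. The histone list has its median at -1.56, and the other 38 lists have medians between -0.29 and 0.47.

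The genes of PSF and of its partners were at similar levels at both doses. SFPQ was at 12.59 with vehicle, 12.61 with No.10-3, 12.60 at 0.5 µM and 12.68 at 2 µM (0.07). PSPC1 was at 9.91, 9.85, 9.88 and 9.98 (0.10), and NONO at 12.48, 12.17, 11.82 and 11.58 (-0.23). NONO was lower on each C-30 array than on vehicle. Of 15 PSF family and paraspeckle genes above background, 9 were higher and 6 lower, against 2735 higher and 3321 lower of all genes. None was past 2-fold, and the median was 0.07. TARDBP, which encodes the RNA-binding protein TDP-43, had the lowest value, from 12.48 to 11.81 (-0.67), and HNRNPH3 the highest, from 12.46 to 12.90 (0.44). These values are of mRNA and do not measure the activity of the protein.

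Outside all these groups, the highest difference was that of ERLIN2, a lipid raft protein of the endoplasmic reticulum, from 5.68 to 7.74 (2.07). Its 0.5 µM signal was under background, and under the 7.11 of vehicle and the 7.32 of No.10-3, and against background it was at least 1.55-fold higher. HHEX, a homeobox factor, was next below ATF3 at 1.80 but at least 1.12-fold against background. Of the 20 highest genes outside the histones, 11 were under background at 0.5 µM, and of the 20 lowest, 12 were under it at 2 µM. GOT1, the cytosolic aspartate aminotransferase, was the brightest of the highest genes, at 11.21 with vehicle, 11.46 with No.10-3, 11.03 at 0.5 µM and 12.36 at 2 µM (1.34). MED20, a subunit of Mediator, was at 8.12, 8.14, 7.33 and 8.67 in the same order (1.34). STRADB, a pseudokinase partner of LKB1, was at 7.94, 8.40, 7.30 and 8.57 (1.28). In both genes the 0.5 µM array was the lowest.

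Among the lowest genes outside the histones, TTC33 came first, from 7.86 to 6.05 (-1.81), at least 1.64-fold against background. It was at 6.48 with vehicle and 6.48 with No.10-3, both under background, so the 0.5 µM array stood above the others. DHX9, an RNA helicase, was bright throughout, at 10.81 with vehicle, 10.70 with No.10-3, 10.74 at 0.5 µM and 9.32 at 2 µM (-1.42). NFIB, a transcription factor, was at 9.34, 9.67, 9.21 and 7.86 (-1.36), and PTCH1, the Hedgehog receptor, at 9.82, 10.10, 9.77 and 8.44 (-1.33). In these 3 genes vehicle, No.10-3 and 0.5 µM lay close together and the 2 µM array stood below. RAB11FIP1, of endosome recycling, had -1.42 and GPHN, the scaffold gephyrin, -1.40. SPIDR and DOCK9 were so close to background at 0.5 µM that their values of -1.32 and -1.30 set no fold.

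**Figure D4:**
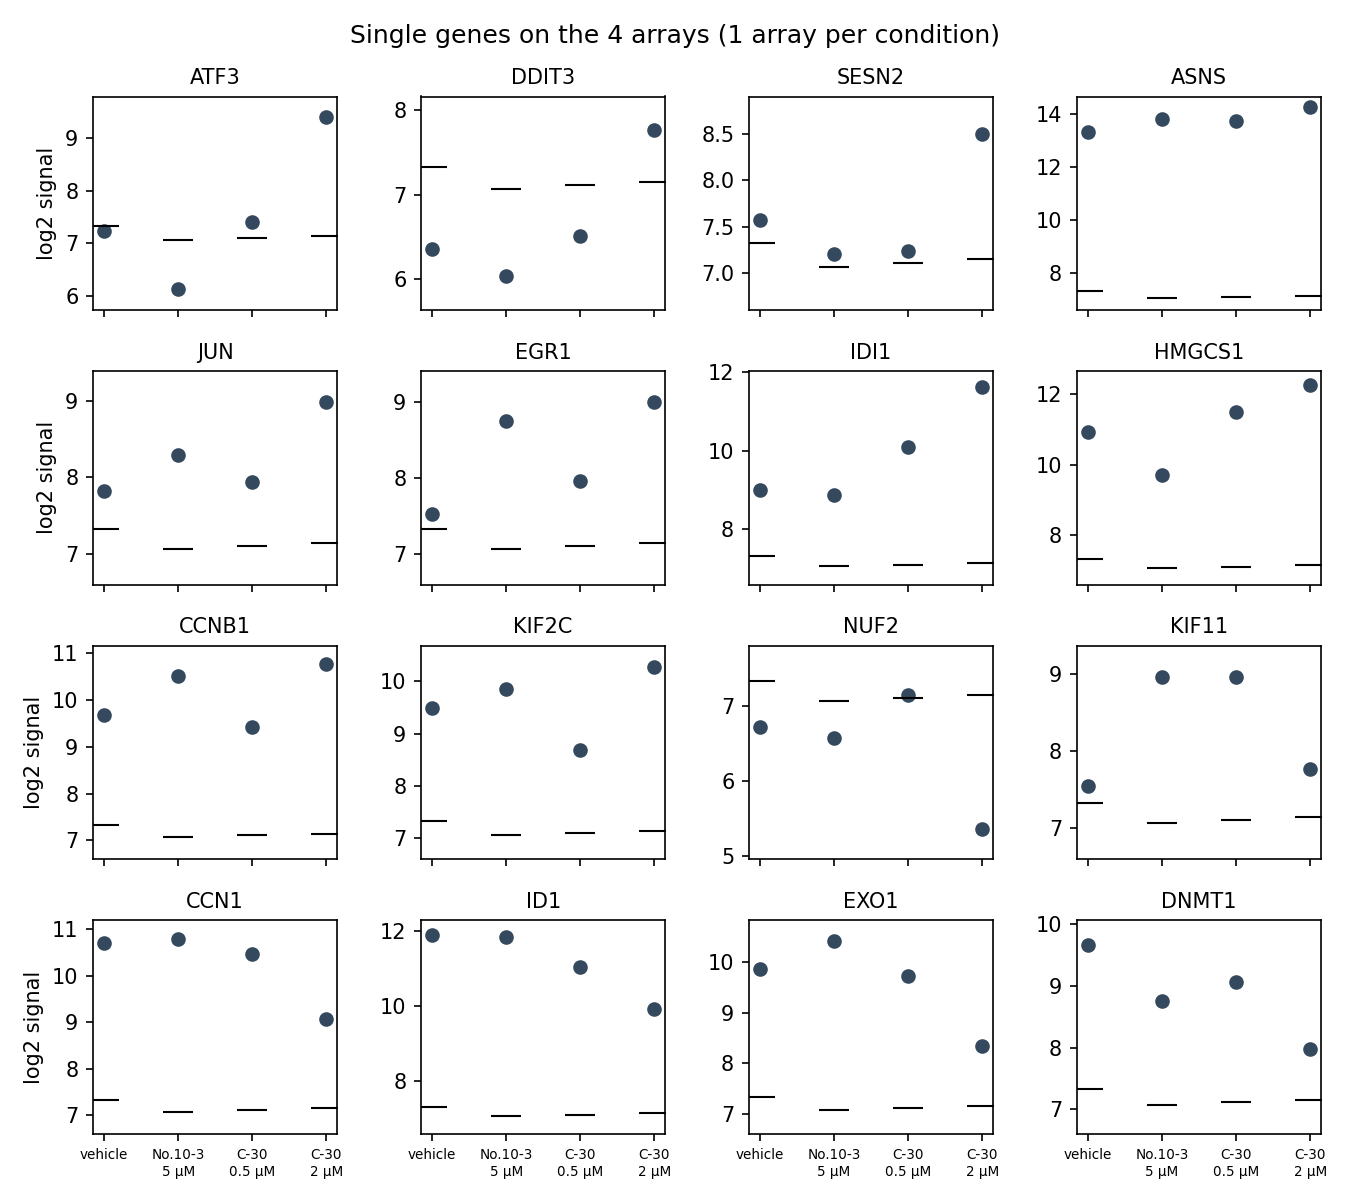
Log2 signals of 16 named genes on the vehicle, No.10-3 (5 µM) and C-30 (0.5 µM, 2 µM) arrays, 1 per condition; black ticks are the background level of each array and the vertical scale differs between panels. ATF3 reaches 9.40 at 2 µM with the other arrays at 7.41 or below, IDI1 goes up from vehicle through 0.5 µM to 11.61, and NUF2 is under background on 3 of the 4 arrays.

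Measures of the arrays bear on these counts. Over 2004 positive control probe sets above background, 57 were past 2-fold higher and 55 lower (5.59%). Over the 6056 genes 182 were past 2-fold either way, 0.974% of them higher by 2-fold and 2.03% lower. The positive controls were thus past 2-fold more often than the genes. Of 47 negative control probe sets above the same level, 29 were past 2-fold. Over 63 ERCC probe sets the robust SD of the difference was 0.15 and none was past 2-fold, but only 1 of them was above background, so this says little of the genes described. The hybridization spikes bioB, bioC, bioD and cre differed by 0.04 to 0.12. The spread of all genes narrowed with signal, from a robust SD of 0.44 for genes under 8 to 0.33 for genes of at least 12. Of epithelial markers, 5 of 7 were above background, namely KRT7, KRT8, KRT18, KRT19 and EPCAM, and CDH1 and KRT5 were not. The summed log2 signal of all 7 was 66.7 at 0.5 µM and 63.8 at 2 µM. Within it KRT8 differed by -0.51, KRT18 by -0.67, KRT19 by -0.75, KRT7 by -0.23 and EPCAM by 0.03. Under background at both doses, CDH1 differed by -1.23 and KRT5 by 0.53. None of 4 luminal prostate or 4 endothelial markers measured was above background, and 1 of 6 leukocyte markers (CD68) and 1 of 5 fibroblast markers (COL1A2) was. Their part in the differences was not tested.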

How the data were processed

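Total RNA of DU145 cells was labelled with biotin, per the labels' protocols, and hybridised to 1 array per condition. The authors deposited log2 signals, the log base being inferred from the values; per the submitters' processing notes they used RMA in Affymetrix Expression Console 1.3.0. Named signals reach 19.7, above the usual scanner range, so an unstated rescaling may bear on each fold. For the genome build and the probe annotation: not given in the sources used here. Precision is limited by the number of arrays.

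The platform annotation named 1 gene for 17709 of 24351 probe sets, several for 0 and none for 6642, 2903 of them controls. All 17709 were updated by Entrez identifier and gave 17687 genes, and the mean was taken for 20 genes with several probe sets. The difference, the background filter and the 2-fold count are as in the report; a signal under background was also replaced by that level to give a fold of at least that size. The report names SFPQ, NONO and PSPC1, the 20 highest and 20 lowest genes outside the histones in part, members of lists past 2-fold or among the 4 largest differences, and members with a defining role; further histones, paired partners and genes holding a motif were named after their values were seen. Uncharacterised loci and small RNA genes were left out. The members and the 41 gene lists were chosen with earlier results of these data known. Alternatives were other floors, a threshold of 1.5-fold, quantile normalization, a lowess correction (fraction 0.3), centring, the brightest probe set and a second deposited table. Promoters and symbols come from RefSeq (GRCh38.p14). The counting code was run on simulated data with less noise than these arrays, and with shifts only in genes above background at both doses. That run checks the code and not the reliability of the 2-fold counts. The software was statsmodels 0.14.6, scipy 1.17.1, matplotlib 3.10.9, pandas 2.3.3 and numpy 2.4.6 under Python 3.11.15.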

Additional observations from a re-analysis of the deposited data

How the results depend on the processing

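For threshold, floor, scaling, probe sets and table, 9 alternatives were tried, and the lower genes were also counted without histones. The count of genes higher at 2 µM, 59, became 395 at a threshold of 1.5-fold, 213 without a floor, 16 with a floor at the 99th percentile of the negative controls, 32 with both signals above background and 97 after the lowess correction, and it was 75 after quantile normalization and 79 with centred arrays. The count of lower genes, 123, became 580, 246, 74 and 73 under the first 4 of these, and was 99 after the lowess correction, 107 after quantile normalization, 106 with centred arrays and 90 without histones. The histone median, -1.56, was -1.16 without a floor and -1.72 with the stricter floor, and lay between these under the other alternatives. The brightest probe set of a gene and the second deposited table gave the same counts. A median was taken as moved when it shifted by more than 0.15, the robust SD of 63 ERCC probe sets of which 1 was above background; many list medians are smaller than that. Of 303 list medians, 11 moved. With the stricter floor these were DNA replication (-0.40), metallothioneins (-0.18), cholesterol (0.26), MAPK feedback (-0.24), TGF-beta, BMP and YAP targets (-0.51), polyamine (-0.29) and epithelial and mesenchymal state (-0.37); without a floor, CDK inhibitors (0.19) and aryl hydrocarbon receptor targets (-0.07); after quantile normalization, metallothioneins (0.20) and ribosomal proteins (-0.01). Quantile normalization, the lowess correction or centring turned the sign of the medians of histone chaperones, core spliceosome and translation initiation factors. The stricter floor turned those of MAPK feedback, from 0.14, metallothioneins, from 0.02, zinc fingers, from 0.02 to -0.13, p53 targets, from 0.05 to -0.05, heat shock, from 0.03 to -0.01, and autophagy, from 0.14 to -0.01; zinc fingers also turned with both signals above background (-0.02), and the BCL2 family without a floor, from -0.08 to 0.02. Where a gene was under background at 1 dose, low signal limits the fold. The cause of the moved counts was not tested beyond the change in the genes counted. No paired analysis was possible because each condition has 1 array.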

Other observations

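Housekeeping groups differed little between the doses. Cytosolic ribosomal protein genes were lower in 42 of 50 cases (84%), against 54.8% of all genes. Their median of -0.24 was brought to -0.01 by quantile normalization, and they are among the brightest genes of the arrays. RPS15, a protein of the small subunit, was the member past 2-fold, at 14.65 with vehicle, 14.59 at 0.5 µM and 13.40 at 2 µM (-1.19), which set it apart from the others, whose next lowest value was the -0.65 of FAU. Respiratory chain genes were lower in 41 of 61 cases (67.2%), none past 2-fold, with a median of -0.14. NDUFV2, of complex I, had the lowest value, from 9.12 to 8.18 (-0.94). Glycolysis and hypoxia genes were lower in 17 of 25 (68%), with a median of -0.16, and PFKM, a phosphofructokinase, had -0.69. Proteasome genes were evenly divided, 19 higher and 18 lower, with PSMD14, a deubiquitinating subunit, lowest at -0.91. SRM, spermidine synthase, went from 9.65 to 8.48 (-1.17), the 1 polyamine gene of 8 past 2-fold (12.5%, against 2.03% of all genes).

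RNA processing genes showed no shared direction. Core spliceosome genes were split 20 and 20, and PRPF6, of the tri-snRNP, was past 2-fold lower, from 9.35 to 8.33 (-1.02). SR proteins and hnRNPs were higher in 22 of 34 cases, against 2735 of all 6056 genes, with a median of 0.07. CLK2, a kinase of SR proteins, had the highest value, from 9.43 to 10.23 (0.80). Of 120 zinc finger genes above background, 62 were higher and 58 lower. The median was 0.02, or -0.13 with a floor at the 99th percentile of the negative controls. Past 2-fold higher were 3 (2.5%, against 0.974% of all genes), ZNF383, ZNF548 and ZNF710, all under background at 0.5 µM. Of 12 epithelial and mesenchymal state genes above background, 4 were higher and 8 lower (66.7%, against 54.8% of all genes). Their median was -0.13, and 1 was past 2-fold lower (8.33%, against 2.03% of all genes). This was ZEB1, a repressor of epithelial genes, at 6.82 with vehicle, 8.28 at 0.5 µM and 7.26 at 2 µM (-1.02). CLDN7, an epithelial tight junction gene, had 0.98 with a 0.5 µM signal under background, at least 1.21-fold against it. ZEB1 and CLDN7 do not stand for the list. Autophagy and lysosome genes were higher in 15 of 24, against 2735 of all 6056 genes, with a median of 0.14, or -0.01 with that floor. None of 12 androgen receptor and prostate lineage genes measured was above background, and of 25 interferon response genes only USP18 was. Of 920 probe sets without a gene name above background, 17 were past 2-fold higher and 19 lower (3.91%).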
